A study of Mus musculus with 30 samples.

Results

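Hippocampus was set against frontal cortex in mice that had received saline, with 3 hippocampal libraries (mice A222, A224 and A226) and 3 cortical libraries (mice A223, A224 and A226) out of 30 in the series. Every gene was eligible, and 17650 genes passed the filter on low counts and were tested. All mice were wild type C57BL/6J adult males, 8 to 12 weeks of age and about 30 g in weight, each kept in its own cage. Both tissues carried the same exposure, which models Gulf War Illness. Corticosterone, the main glucocorticoid of rodents, was drunk at 200 mg/L in 0.6% ethanol for 7 days. Diisopropyl fluorophosphate (DFP), an organophosphate that blocks acetylcholinesterase, was injected once into the peritoneum at 4 mg/kg on day 8. Further corticosterone courses of 7 days followed every other week until 5 weeks had passed, and tissue was taken 6 h after saline. The comparison is therefore one of regions in exposed animals, and no unexposed group was used here. Another 12 hippocampal and 12 cortical libraries came from other mice with the same exposure that were given lipopolysaccharide (LPS, a bacterial endotoxin; 0.5 mg/kg under the skin) 6, 12 or 24 h before dissection. These served as a repeat of the regional comparison in libraries that share no sample with it.

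The hippocampus is a folded sheet of older cortex in which granule neurons of the dentate gyrus project to CA3 pyramidal neurons, and these to CA1, with the small CA2 field between them. Frontal cortex is neocortex, with pyramidal neurons stacked in layers of differing targets. Granule and pyramidal neurons of each field carry their own sets of transcription factors, receptors and channels. Striatum lies under frontal cortex and choroid plexus lies along the hippocampus, so that either can enter a dissection.

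The saline libraries held between 16826882 and 33034295 counts, with cortex A224 the shallowest and cortex A226 the deepest, and the LPS libraries between 18479503 and 26366879. Mitochondrial transcripts took 7.04% to 8.05% of counts in hippocampus and 8.33% to 9.64% in frontal cortex. Levels are CPM, the counts of a gene scaled to the size of its library after TMM correction of that size, and values are given in the order hippocampus A222, A224, A226 and frontal cortex A223, A224, A226. Labelled tissue and defining genes went together: Prox1, the transcription factor of dentate granule neurons, had 93.4, 98.3 and 86.6 CPM in hippocampus, against 13.9, 12.1 and 13.8 CPM in frontal cortex. Cux2, of upper-layer neocortical neurons, had 29.7, 19.6 and 20.2 CPM in hippocampus, against 93.1, 75.9 and 107 CPM in frontal cortex. Marker genes of neighbouring tissue set some libraries apart. The 22 striatal medium spiny neuron genes summed to 924, 906 and 929 CPM in hippocampus, against 1464, 2795 and 1010 CPM in frontal cortex, where A224 was highest. The 18 choroid plexus genes summed to 1415, 108 and 196 CPM in hippocampus, against 108, 1116 and 57 CPM in frontal cortex, so that hippocampus A222 and cortex A224 stood above the others. Mice A224 and A226 gave both tissues, and the choroid plexus sum was high in only one tissue of A224.

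Of the 17650 genes, 6552 (37.1%) differed between hippocampus and frontal cortex at an adjusted p under 0.05 (edgeR quasi-likelihood test, Benjamini-Hochberg adjustment over all genes). Expression was higher in hippocampus for 3513 genes (19.9%) and lower for 3039 (17.2%), and the median log2 fold change of all genes was 0.01. At least 2-fold differences were called for 734 genes higher in hippocampus (4.16%) and for 861 genes lower (4.88%). At least 4-fold differences were called for 232 genes that were higher and 238 that were lower. The 3 hippocampal libraries did not overlap the 3 cortical ones for 8634 genes (48.9%), among them 3392 of those called higher and 2873 of those called lower. In bulk tissue, fewer cells of a type and less RNA per cell cannot be told apart, and this holds for every difference given here. Leaving out cortex A223 and A224, the cortical libraries with most striatal RNA, left cortex A226 as the only cortical library. Fewer genes were then called in either direction. That alternative was added after the data had been seen.

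**Figure D1:**
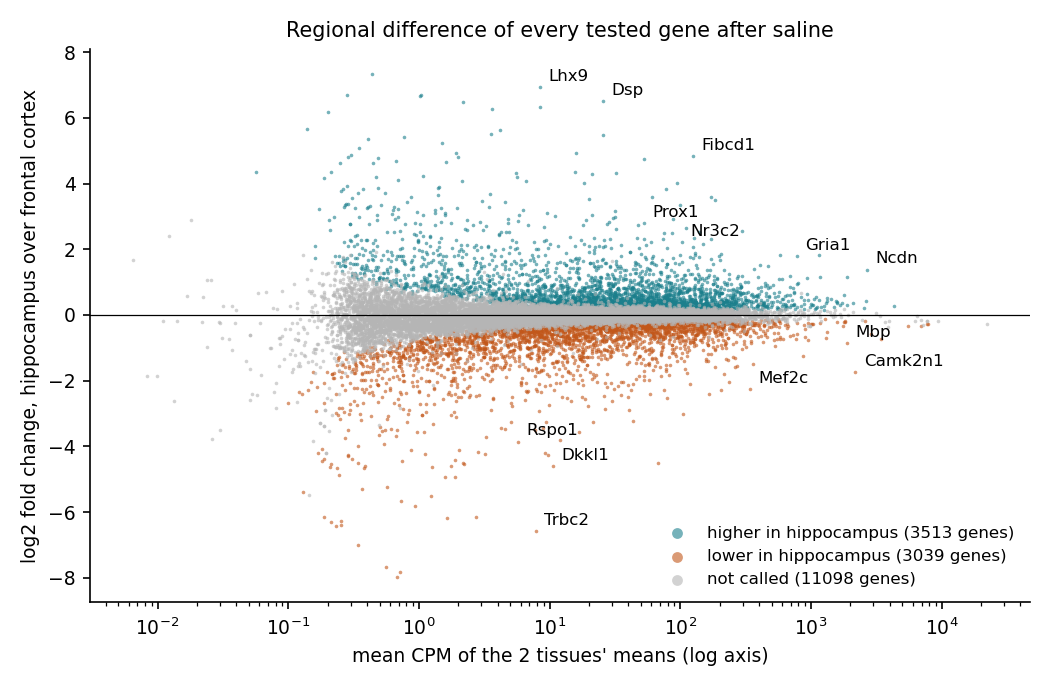
Each point is a gene, with the mean level of both tissues on the x axis (CPM, log scale) and the log2 fold change of hippocampus over frontal cortex on the y axis (3 libraries each, saline); coloured points passed an adjusted p of 0.05. The called genes lie on both sides of 0, with Lhx9 (6.93) at the top and Trbc2 (-6.58) at the bottom among the labelled genes.

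Genes of large change are named among those called, with groups that did not overlap and a mean log2 CPM of at least 1; some scarcer genes had larger fitted changes. Among them the largest rise was in Lhx9, a LIM homeodomain transcription factor. It had 15.2, 18.5 and 16.1 CPM in hippocampus, against 0.199, 0.119 and 0.0934 CPM in frontal cortex (log2 fold change 6.93, SE 0.33, adjusted p = 7.49e-17). Every hippocampal library lay far above every cortical one. The cortical libraries held 9 counts of Lhx9 in all, so the size of its rise rests on few reads. Dsp encodes desmoplakin, a protein that ties desmosomes to the cytoskeleton and that marks granule neurons in the dentate gyrus, and had 59.0, 51.5 and 42.0 CPM in hippocampus, against 0.646, 0.536 and 0.498 CPM in frontal cortex (6.51, SE 0.24, adjusted p = 2.8e-19). On the other side stood Dkkl1, a secreted protein related to the Dickkopf family. It had 0.734, 0.626 and 1.21 CPM in hippocampus, against 20.6, 18.6 and 22 CPM in frontal cortex (-4.59, SE 0.21, adjusted p = 1.67e-17). Igfn1, a protein of immunoglobulin-like and fibronectin domains, had 1.33, 0.209 and 1.40 CPM in hippocampus, against 18.3, 13.5 and 24.1 CPM in frontal cortex (-4.27, SE 0.34, adjusted p = 6.17e-11). Neither gene's groups overlapped.

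The promoters of these 4 genes are shown because they belong to the genes with the largest differences in each direction for which RefSeq (GRCm38.p6) gave one; 10 of the 11 genes reported for the largest rise and 7 of the 11 for the largest fall had an entry. Each runs 5′ to 3′ on the gene's strand from 250 bases before the start to 50 after it. Capitals mark matches to 5 motifs searched on both strands: the E-box CAGATG, the cyclic AMP response element TGACGTCA, the TATA box TATAAA, the GC box GGGCGG and the glucocorticoid response element, which has the arms GNACA and TGTNC with any 3 bases between them. No matches overlapped in these windows. Lhx9 lies at chr1:138842395-138842694 (minus strand), Dsp at chr13:38151044-38151343 (plus strand), Dkkl1 at chr7:45211834-45212133 (minus strand) and Igfn1 at chr1:136006293-136006592 (minus strand).
Lhx9: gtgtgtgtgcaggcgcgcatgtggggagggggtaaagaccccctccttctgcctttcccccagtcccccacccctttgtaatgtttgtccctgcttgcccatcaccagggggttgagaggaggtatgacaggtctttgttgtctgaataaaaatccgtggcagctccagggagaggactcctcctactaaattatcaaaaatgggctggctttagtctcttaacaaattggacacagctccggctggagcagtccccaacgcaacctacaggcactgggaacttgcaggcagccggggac
Dsp: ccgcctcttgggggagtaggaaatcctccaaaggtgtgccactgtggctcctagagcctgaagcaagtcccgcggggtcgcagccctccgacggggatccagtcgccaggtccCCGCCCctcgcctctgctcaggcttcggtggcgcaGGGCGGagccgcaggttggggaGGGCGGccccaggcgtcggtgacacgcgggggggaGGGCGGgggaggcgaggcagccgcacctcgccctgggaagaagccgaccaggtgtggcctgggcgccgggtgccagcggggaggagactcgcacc
Dkkl1: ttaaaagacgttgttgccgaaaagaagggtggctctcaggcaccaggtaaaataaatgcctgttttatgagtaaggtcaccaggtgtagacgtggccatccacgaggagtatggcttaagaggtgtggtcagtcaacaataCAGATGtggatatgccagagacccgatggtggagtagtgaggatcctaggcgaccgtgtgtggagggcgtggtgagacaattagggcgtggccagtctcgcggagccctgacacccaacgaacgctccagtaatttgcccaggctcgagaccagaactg
Igfn1: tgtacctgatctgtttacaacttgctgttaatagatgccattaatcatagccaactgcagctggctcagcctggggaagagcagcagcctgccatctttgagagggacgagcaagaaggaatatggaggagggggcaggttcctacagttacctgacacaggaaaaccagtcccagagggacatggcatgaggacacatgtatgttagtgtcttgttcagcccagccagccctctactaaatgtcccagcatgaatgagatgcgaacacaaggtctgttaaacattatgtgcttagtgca
The Dsp window held 4 GC boxes, 1 of them on the other strand, the Dkkl1 window held 1 E-box, and the other two windows held no match. Among promoters of all 12300 tested genes with an entry, 65.3% held a GC box, 14.6% the E-box, 9.18% the TATA box, 3.33% the cyclic AMP response element and 0.439% the glucocorticoid response element. Among the 505 genes at least 2-fold higher in hippocampus with an entry, the shares were 57.8%, 19.2%, 11.5%, 0.792% and 0.99% in the same order. Among the 575 genes at least 2-fold lower with an entry, they were 49.9%, 18.8%, 13.2%, 2.09% and 0.87%. These matches describe letters in a window and were not tested.

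The other genes with a large rise came from varied families. Slc9a4, a sodium-hydrogen exchanger, had 15.7, 19.8 and 14.8 CPM in hippocampus, against 0.199, 0.238 and 0.187 CPM in frontal cortex (log2 fold change 6.33, SE 0.26). Lct, which encodes lactase and is known as a dentate marker, had 55.1, 49.5 and 46.7 CPM in hippocampus, against 1.09, 0.953 and 1.25 CPM in frontal cortex (5.48, SE 0.29). Neither gene's groups overlapped, which the rule for naming them required. C1ql2, a secreted organizer of mossy fibre synapses, had 97.9, 96.6 and 109 CPM in hippocampus, against 4.87, 1.91 and 4.11 CPM in frontal cortex (4.75, SE 0.18). Klk8, the extracellular protease neuropsin, had 9.51, 10.4 and 11.6 CPM in hippocampus, against 0.447, 0.536 and 0.561 CPM in frontal cortex (4.32, SE 0.21). Pla2g2f, a secreted phospholipase A2 (6.27), the keratin Krt2 (5.63), the retrotransposon-derived Rtl3 (5.52) and the cytokine precursor Il16 (4.34) were also called higher. Rtl3 stood at 6.11 without cortex A224. Pla2g2f stood at 5.67 without cortex A226 and at 7.59 without cortex A223 and A224.

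Under the same conditions the largest fall was in Trbc2, a constant segment of the T cell receptor beta locus that has a near-identical copy, Trbc1, so its counts are uncertain. Its values were 0.14, 0.174 and 0.156 CPM in hippocampus, against 16.1, 14.1 and 16.3 CPM in frontal cortex (log2 fold change -6.58, SE 0.30, adjusted p = 1.43e-17). Foxp2, a forkhead transcription factor of layer 6 neurons that striatal neurons also express, had 0.839, 0.939 and 1.05 CPM in hippocampus, against 15.3, 23.0 and 13.9 CPM in frontal cortex (-4.19, SE 0.25). Rasgef1c, a Ras exchange factor, had 2.48, 2.40 and 3.04 CPM in hippocampus, against 31.4, 33.3 and 28.4 CPM in frontal cortex (-3.55, SE 0.14). Cortical levels of Rasgef1c and Trbc2 hardly varied between the 3 libraries, while those of Foxp2 were highest in A224. The keratin Krt80 (-4.50), the sialidase Neu2 (-4.18), the meiotic gene Mei1 (-4.12) and Rspo1, an enhancer of Wnt signalling (-3.85), were also called lower. Slc5a7 and Adora2a, of cholinergic and striatal neurons, also belong here and are described with those lists.

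**Figure D2:**
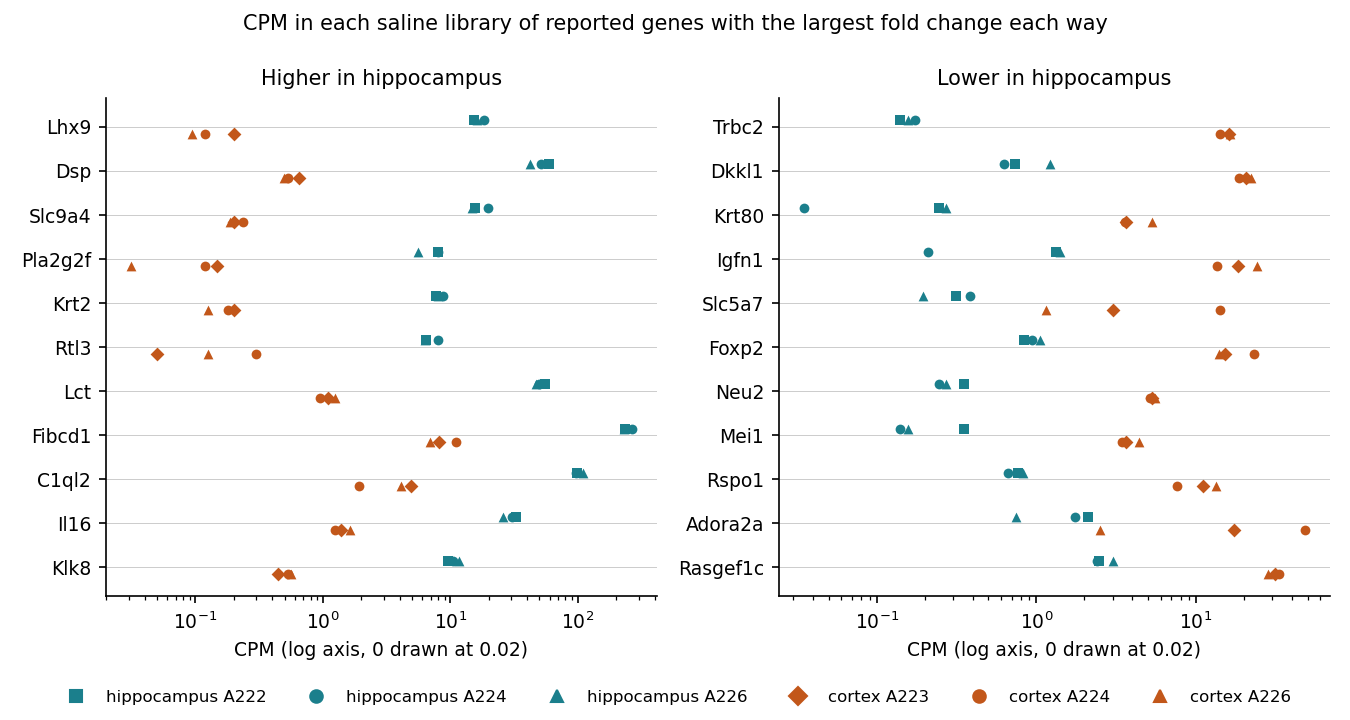
CPM (log scale) of the 11 genes named for the largest rise and the 11 for the largest fall in hippocampus, 1 point per library, hippocampus beside frontal cortex. The genes were named among those with groups that did not overlap. The 3 hippocampal libraries therefore lie to one side of the 3 cortical ones for every gene. Lhx9 had 15.2 to 18.5 CPM in hippocampus and 0.0934 to 0.199 CPM in frontal cortex.

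The largest rises in CPM were in abundant neuronal transcripts. Ncdn, neurochondrin, had 3920, 3980 and 3690 CPM in hippocampus, against 1450, 1570 and 1440 CPM in frontal cortex (2.6-fold higher, adjusted p = 1.9e-17). Hpca, the calcium sensor hippocalcin, had 1760, 1860 and 1770 CPM in hippocampus, against 503, 554 and 464 CPM in frontal cortex (3.55-fold higher, adjusted p = 3.41e-17). Ddn, the postsynaptic protein dendrin, was 2.23-fold higher and Camk2b, a subunit of calcium/calmodulin-dependent kinase II, 2.25-fold higher. Camk2a, the other main subunit of that kinase, had 4930, 4680 and 4580 CPM in hippocampus, against 4100, 3280 and 4280 CPM in frontal cortex (1.22-fold higher, adjusted p = 0.0209). Its groups did not overlap, which held for every gene named for its CPM difference and adds no support to the call. The Camk2a call was lost with the mouse as a block (adjusted p = 0.0868), without cortex A224 (log2 fold change 0.18, adjusted p = 0.174) and without hippocampus A222 (adjusted p = 0.0724). Here and below, the block is a fixed effect unless a random effect is named. In that fit only A224 and A226, the mice with both tissues, inform the saline difference.

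The inhibitor of that kinase went the other way. Camk2n1 had 978, 933 and 1120 CPM in hippocampus, against 3520, 3180 and 3390 CPM in frontal cortex (3.33-fold lower, adjusted p = 2.54e-19). Kif5a, a motor of axonal transport, was 1.67-fold lower, and Snap25, a SNARE protein of synaptic vesicle fusion, 1.5-fold lower, at 2210, 2310 and 2400 CPM in hippocampus, against 3390, 3160 and 3820 CPM in frontal cortex. Mitochondrial transcripts mt-Co2 (log2 fold change -0.28, adjusted p = 0.0376) and mt-Nd1 (-0.34, adjusted p = 0.0171) also passed. Gm29216 (-0.32, adjusted p = 0.0274) passed too, a copy of mitochondrial sequence on a nuclear chromosome whose reads can be shared with it. All 3 calls were lost with the mouse as a block, at adjusted p of 0.394, 0.182 and 0.309, and without hippocampus A222, at 0.183, 0.0821 and 0.119. None of the 3 was called in the same direction after LPS.

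Marker lists are given beside the background that 19.9% of all tested genes were higher and 17.2% lower. They held 536 genes, of which 527 passed the filter on low counts. The lists were chosen with earlier results of these data known, so their counts are descriptive and test nothing. Genes that hippocampal granule neurons are known for were mostly higher: 13 of 18 dentate genes were called higher and 3 lower, with a median log2 fold change of 0.75. Beside Prox1 (2.80, SE 0.12), Dsp, Lct and C1ql2, these included Tdo2, which begins tryptophan breakdown, at 8.18, 9.26 and 7.41 CPM in hippocampus, against 0.795, 0.834 and 0.685 CPM in frontal cortex (3.44, SE 0.20). The zinc finger factor Glis3 (1.81), the ciliary regulator Rfx3 (1.56) and the cation channel gene Trpc6 (1.02) were also higher. Calb1, the calcium buffer calbindin, which upper-layer cortical neurons also make, differed less, with 161, 182 and 167 CPM in hippocampus, against 119, 126 and 93.1 CPM in frontal cortex (0.59, SE 0.09). Cpne9 went against the list at 11.4, 11.3 and 11.7 CPM in hippocampus, against 43.0, 40.1 and 59.9 CPM in frontal cortex (-2.06, SE 0.12), as did Pdzd2 (-0.69) and Marcks (-0.31). Fewer members were called lower without cortex A223 and A224, as were fewer genes among all those tested.

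For CA1 pyramidal neurons, 10 of 13 genes were higher in hippocampus and 1 lower (median 1.11). Fibcd1, a receptor for acetylated groups on chitin, had 234, 265 and 229 CPM in hippocampus, against 8.15, 11.1 and 6.94 CPM in frontal cortex (log2 fold change 4.83, SE 0.14, adjusted p = 7.81e-22). Gpr161, a receptor that represses Hedgehog signalling, had 121, 117 and 101 CPM in hippocampus, against 10, 8.22 and 9.72 CPM in frontal cortex (3.59, SE 0.12). The protease inhibitor gene Spink8 (4.01, or 4.88 without cortex A223 and A224), the ephrin receptor Epha7 (1.75) and the thyroid hormone-binding protein Crym (1.70) were higher too. Wfs1, an endoplasmic reticulum protein often used to stain CA1, had 124, 98.1 and 121 CPM in hippocampus, against 102, 148 and 70.8 CPM in frontal cortex (0.10, SE 0.21, adjusted p = 0.745). Its groups overlapped, and cortex A224 was the highest of the 6.

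CA2 is small, yet 9 of 12 of its genes were higher in hippocampus and 1 lower (median 1.35). Amigo2, a cell adhesion protein, had 33.6, 36.5 and 26.8 CPM in hippocampus, against 7.05, 10.2 and 5.92 CPM in frontal cortex (log2 fold change 2.10, SE 0.15). Rgs14, which restrains plasticity in CA2, had 112, 118 and 121 CPM in hippocampus, against 39.2, 48.4 and 33.2 CPM in frontal cortex (1.55, SE 0.15). Ntf3, the trophic factor neurotrophin 3, was 3.28 higher on the log2 scale (SE 0.19), at 6.54, 5.74 and 6.35 CPM in hippocampus, against 0.745, 0.417 and 0.685 CPM in frontal cortex. Avpr1b, the vasopressin receptor by which CA2 acts in social memory, had 47 counts over the hippocampal libraries and 0 over the cortical ones. Taking 3 counts over the cortical group as the limit that a count of 0 allows, it was at least 12.8-fold higher in hippocampus; with Avpr1b at that bound the list's median was still 1.35. The calmodulin-binding protein gene Pcp4 went the other way, at 4.41, 6.09 and 6.47 CPM in hippocampus, against 18.6, 22.4 and 12.8 CPM in frontal cortex (-1.65, SE 0.17).

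Of the 12 genes of CA3, 8 were higher in hippocampus and 2 lower (median 0.68). Homer3, a scaffold of metabotropic glutamate receptors, had 37.6, 38.4 and 33.9 CPM in hippocampus, against 2.93, 2.92 and 3.46 CPM in frontal cortex (log2 fold change 3.54, SE 0.12). Grik4, the kainate receptor subunit GluK4 of the mossy fibre synapse, had 67.0, 71.7 and 65.2 CPM in hippocampus, against 25.7, 20.6 and 22.1 CPM in frontal cortex (1.57, SE 0.08). Iyd, which recovers iodide from iodotyrosine, had 2.90, 3.34 and 2.53 CPM in hippocampus, against 0.149, 0 and 0.0623 CPM in frontal cortex (5.23, SE 0.45). The fitted change of Iyd was 5.97 without cortex A223. The cortical libraries held 5 counts of Iyd in all, so this size too rests on few reads. Coch, a secreted protein first known from the inner ear, was lower with 3.57, 4.28 and 4.33 CPM in hippocampus, against 37.4, 41.6 and 37.3 CPM in frontal cortex (-3.25, SE 0.19). Prss23, a secreted protease, was also lower (-1.39, SE 0.12).

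Genes shared by hippocampal fields or laid down in the medial pallium were higher for 12 of 17 and lower for 3 (median 1.09). Zbtb20, a repressor needed for hippocampal identity, had 143, 162 and 161 CPM in hippocampus, against 45.9, 41.7 and 44.0 CPM in frontal cortex (log2 fold change 1.82, SE 0.11, adjusted p = 4.9e-14). The transcriptional cofactor Lmo1 (2.17), the neuronal factors Neurod6 (1.52), Neurod1 (1.42) and Neurod2 (1.09) and the pentraxin Nptx1 (1.09) were higher as well. Fzd10, a Wnt receptor, was lower at 0.315, 0.383 and 0.507 CPM in hippocampus, against 1.39, 1.13 and 1.68 CPM in frontal cortex (-1.83, SE 0.28). Adult neurogenesis genes did not move together: 3 of 14 were higher and 5 lower (median 0.02). Dcx, doublecortin of migrating neuroblasts, had 10.1, 8.35 and 8.46 CPM in hippocampus, against 13.5, 12.7 and 14.8 CPM in frontal cortex (-0.61, SE 0.13, adjusted p = 0.000213). Calb2, calretinin of immature granule neurons and of interneurons, was higher (1.58, SE 0.25). The axon guidance gene Draxin was called higher (1.35, adjusted p = 0.0156) and the proneural gene Neurod4 lower (-1.50, adjusted p = 0.0391), at about 1 CPM or less in every library. Draxin lost its call with the mouse as a fixed block (0.0788) and without hippocampus A226, cortex A223 or cortex A226. Neurod4, whose groups overlapped, lost it with the mouse as a fixed block (0.5) or a random effect (0.0564), with DESeq2 (0.0601) and without hippocampus A222, hippocampus A224, cortex A223 or cortex A226. The division genes Mki67 (0.67, adjusted p = 0.247) and Top2a (-1.24, adjusted p = 0.116) did not pass, at under 1 CPM in all 6 libraries.

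Among cortical layers, the upper ones were most clearly lower in hippocampus: 12 of 15 layer 2 to 4 genes were lower and 2 higher (median -1.58). Lamp5, a vesicular membrane protein, had 53.9, 50 and 53.6 CPM in hippocampus, against 284, 249 and 301 CPM in frontal cortex (log2 fold change -2.41, SE 0.11). Rorb, the nuclear receptor of layer 4, had 8.81, 10.8 and 10.3 CPM in hippocampus, against 34.7, 28.3 and 41.9 CPM in frontal cortex (-1.82, SE 0.14, adjusted p = 2.29e-12). Rspo1 (-3.85), the GTPase regulator Stard8 (-2.47) and the homeodomain factors Cux2 (-1.99) and Cux1 (-1.33) were lower. Mdga1, a regulator of synapse adhesion, went against the list with 86.9, 85.0 and 72.4 CPM in hippocampus, against 10.9, 17.3 and 9.25 CPM in frontal cortex (2.74, SE 0.18); Calb1 was the other member called higher.

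Layer 5 genes went against their name, with 9 of 15 higher in hippocampus and 3 lower (median 0.65). Bcl11b, a zinc finger factor of corticospinal neurons that dentate, CA1 and striatal neurons also make, had 162, 170 and 170 CPM in hippocampus, against 64.5, 89.8 and 59.6 CPM in frontal cortex (log2 fold change 1.24, SE 0.12). Pou3f1, also counted with CA1, was 0.98 higher (SE 0.08), and the natriuretic peptide receptor Npr3 1.06 higher (SE 0.15). Fezf2, which specifies subcortical projection neurons, differed by 0.42 (SE 0.10), at 49.5, 47.9 and 45.2 CPM in hippocampus, against 34.5, 30.8 and 40.6 CPM in frontal cortex. Deptor, an inhibitor of mTOR kinase (-1.78), and the nuclear factor Tox (-1.26) were lower. Of 14 genes of layer 6 and subplate, 7 were lower and 2 higher (median -0.32). Tbr1, a T-box factor of corticothalamic neurons, had 57.4, 49.0 and 46.7 CPM in hippocampus, against 173, 163 and 187 CPM in frontal cortex (-1.77, SE 0.11). Nr4a2, a nuclear receptor of subplate and claustrum that activity also induces, was higher at 53.9, 49.1 and 50.4 CPM in hippocampus, against 16.7, 22.6 and 15.4 CPM in frontal cortex (1.5, SE 0.19). The other member called higher, Moxd1, was lost without cortex A223, without cortex A226 or without hippocampus A222, which left 1.

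Genes of neocortical projection neurons in general were lower for 7 of 14 and higher for 4 (median -0.27). Mef2c, a factor that limits excitatory synapse number, had 119, 108 and 127 CPM in hippocampus, against 579, 451 and 666 CPM in frontal cortex (log2 fold change -2.26, SE 0.14). Rgs4, which shortens G protein signals, had 139, 136 and 145 CPM in hippocampus, against 392, 377 and 448 CPM in frontal cortex (-1.54, SE 0.10). Nr2f2, the nuclear receptor COUP-TFII, was higher with 36.0, 43.4 and 37.1 CPM in hippocampus, against 8.99, 9.59 and 8.60 CPM in frontal cortex (2.11, SE 0.15). Bhlhe22 (1.62), Neurod6 (1.52) and Lmo3 (0.70) were the others called higher; Neurod6 is also on the list of hippocampal genes.

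**Figure D3:**
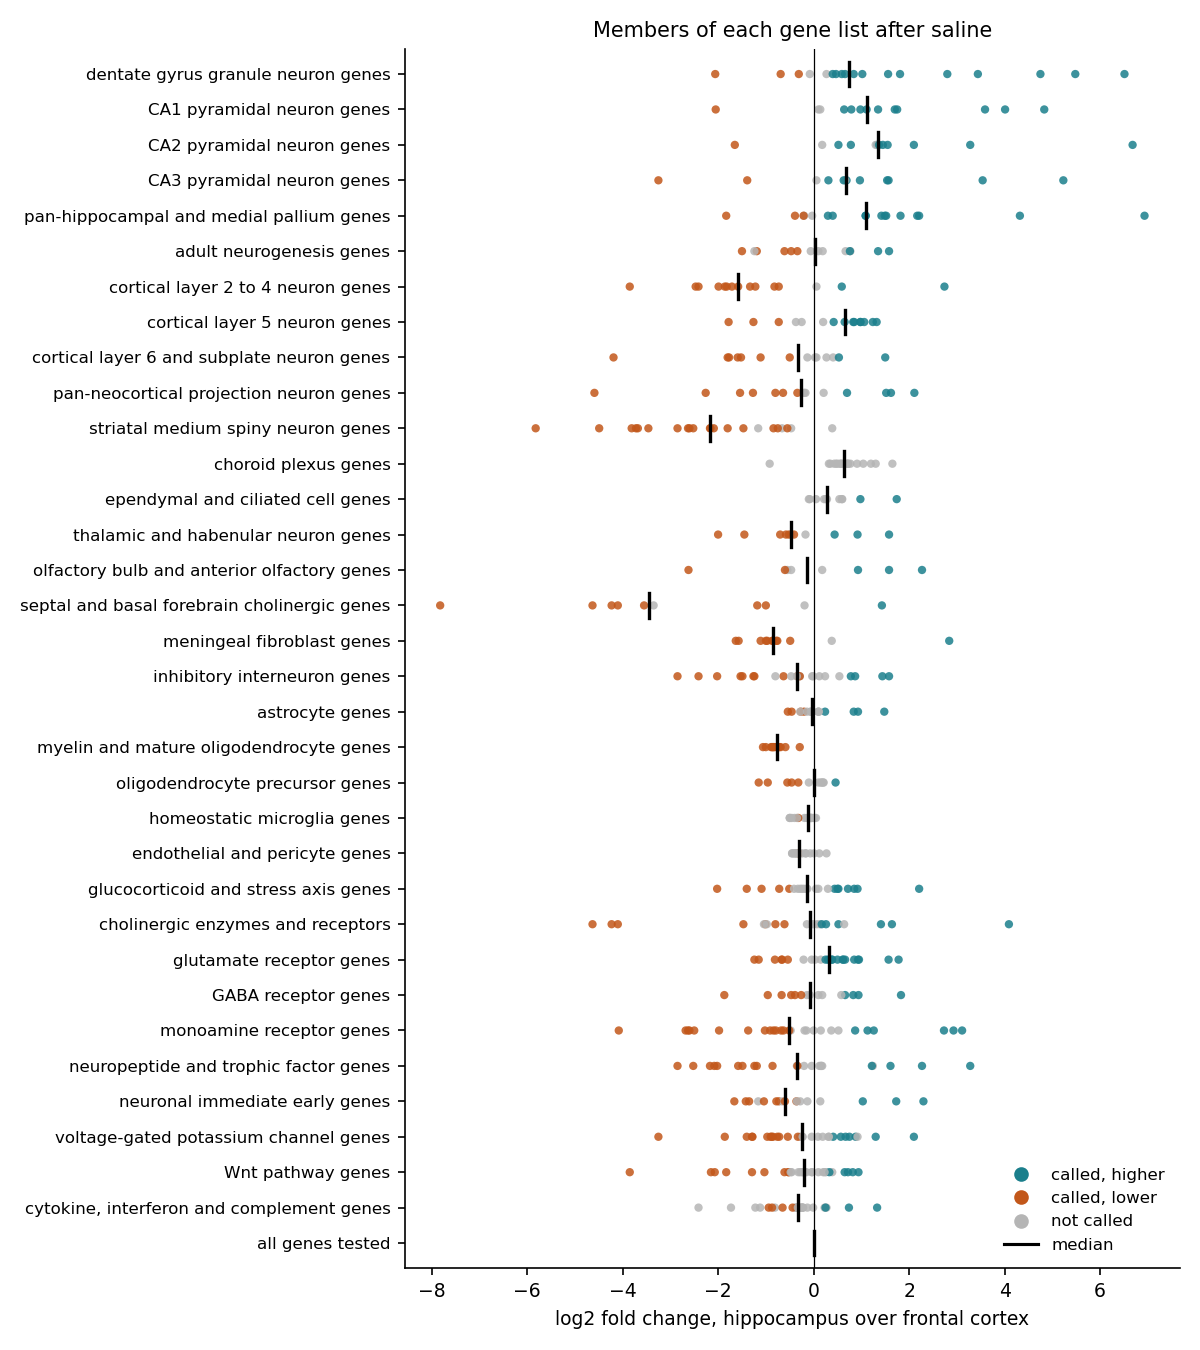
Log2 fold change of hippocampus over frontal cortex for each tested gene of the marker and signalling lists, 1 row per list, 1 point per gene, with the list's median as a bar and the median of all tested genes (0.01) in its own row. The CA1 and CA2 medians (1.11 and 1.35) lie right of 0, and those of layer 2 to 4 (-1.58), striatal (-2.17) and septal (-3.45) genes lie left of it.

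Striatal medium spiny neuron genes were lower in hippocampus for 18 of 22 members and higher for 0 (median -2.17). Ppp1r1b, the dopamine-regulated phosphatase inhibitor DARPP-32, had 50.9, 38.3 and 44.2 CPM in hippocampus, against 149, 325 and 98.4 CPM in frontal cortex (log2 fold change -2.09, SE 0.35, adjusted p = 3.28e-05). Adora2a, the adenosine receptor of the indirect pathway, had 2.10, 1.74 and 0.741 CPM in hippocampus, against 17.4, 48.0 and 2.52 CPM in frontal cortex (-3.81, SE 0.82, adjusted p = 0.00068). In both genes cortex A224 was highest and cortex A226 lowest among the cortical libraries, the same order as the summed list, which includes both. The dopamine receptor genes Drd1 (-2.63, adjusted p = 6.59e-05) and Drd2 (-2.60, adjusted p = 0.00726) followed, with Drd2 at 1.85, 1.6 and 1.79 CPM in hippocampus, against 6.66, 25.7 and 1.21 CPM in frontal cortex. Cortex A226 thus lay below every hippocampal library for Drd2. Isl1, a developmental factor of direct pathway neurons, had 2 counts over the hippocampal libraries and 101 over the cortical ones, a ratio of 0.0162 (exact 95% interval 0.00194 to 0.0602, counting error only).

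The sizes of these differences varied with the cortical libraries used. Without cortex A223 and A224, cortex A226 was the only cortical library, so sizes alone are given. The striatal sum of cortex A226, 1010 CPM, lay below those of all cortical LPS libraries, at 1039 to 1972 CPM (median 1630). In that fit Ppp1r1b stood at -1.17 and Ido1, which breaks down tryptophan, at -2.32. Adora2a stood at -0.73, Penk at -0.84, Tac1 at -0.56, Drd1 at -1.21 and Drd2 at 0.50. Without cortex A224 alone, Drd2 (-1.07, adjusted p = 0.251) and the homeodomain gene Six3 (-2.08, adjusted p = 0.182) no longer passed, 1 member was called higher, and Adora2a (-2.60), Drd1 (-1.86), Ppp1r1b (-1.47), Penk (-1.65), Tac1 (-1.87), Ido1 (-2.78) and Isl1 (-4.86) kept their calls at smaller sizes. Without cortex A226, Drd2 was -3.19, Six3 -4.35 and Isl1 -6.45, and Six3 was also -4.35 without hippocampus A222. With the mouse as a block, adjusted p was 0.0983 for Drd2, 0.05 for Penk and 0.0504 for Tac1, and with the mouse as a random effect it was 0.193 for Drd2, 0.282 for Six3 and 0.0799 for Isl1. Fitted on the 6 saline libraries alone, Drd1 (adjusted p = 0.0584), Drd2 (0.192), Adora2a (0.101), Penk (0.0748), Tac1 (0.0983) and Six3 (0.158) did not pass. Pdyn, prodynorphin, did not overlap between the tissues, at 12.1, 11.7 and 12.2 CPM in hippocampus, against 50, 73.7 and 39.4 CPM in frontal cortex (-2.17, SE 0.22). The part of striatal RNA in these differences was not tested beyond leaving libraries out.

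Choroid plexus genes gave 0 calls among 18 in either direction, with a median of 0.64. Ttr, transthyretin, the main secreted protein of that epithelium, had 1180, 54.9 and 135 CPM in hippocampus, against 79.3, 963 and 35.8 CPM in frontal cortex (log2 fold change 0.35, SE 1.77, adjusted p = 0.904). Its groups overlapped, and the range within either tissue was wider than the difference between them. Kl, the ageing-related hormone coreceptor klotho, had 72.5, 32.0 and 29.7 CPM in hippocampus, against 5.81, 35.3 and 4.36 CPM in frontal cortex (1.65, SE 0.75, adjusted p = 0.0894). Without cortex A224, 4 members were called higher, among them Kl (3.16, adjusted p = 0.00555) and Sostdc1, a BMP and Wnt antagonist also on the CA2 list (2.88, adjusted p = 0.00751). Both also passed with the mouse as a random effect, at adjusted p of 0.00202 and 0.0156. After LPS, 4 members were called higher and 1 lower.

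Septal and basal forebrain cholinergic genes were lower in hippocampus for 7 of 10 and higher for 1, with a median of -3.45, which was the same with Lhx8 at its bound. Chat, which makes acetylcholine, had 0.0699, 0.0696 and 0.117 CPM in hippocampus, against 1.04, 5.84 and 0.405 CPM in frontal cortex (log2 fold change -4.63, SE 1.12, adjusted p = 0.00192). Slc5a7, the choline transporter, had 0.315, 0.383 and 0.195 CPM in hippocampus, against 3.03, 14.1 and 1.15 CPM in frontal cortex (-4.23, SE 0.94, adjusted p = 0.000863). Lhx8, a factor of forebrain cholinergic neurons, had 0 counts over the hippocampal libraries and 74 over the cortical ones, which makes it at least 30.1-fold lower in hippocampus against a limit of 3 counts over the group. Nearly all of those counts were in cortex A224, and its adjusted p of 0.0288 became 0.273 without that library, between 0.0636 and 0.0738 without any 1 hippocampal library, 0.0759 with the mouse as a random effect and 0.0542 with no filter on low counts. The list summed to 28, 27 and 24 CPM in hippocampus, against 30, 71 and 18 CPM in frontal cortex, so cortex A224 was again highest. Without that library 4 members were called lower, with Chat at -2.92, Slc5a7 at -2.70 and the vesicular transporter Slc18a3 at -3.19. The count was also 4 without hippocampus A224 or hippocampus A226. Without cortex A226, Chat was -5.22, and without hippocampus A222 Slc18a3 was -5.17. Fitted on the 6 saline libraries alone, Chat (-4.68, adjusted p = 0.0868) and Slc5a7 (-4.28, adjusted p = 0.0781) did not pass. Without cortex A223 and A224, with cortex A226 as the only cortical library, Chat stood at -2.21, Slc5a7 at -1.94 and Slc18a3 at -2.21. Dlk1, the member called higher, lost its call in each fit that left out 1 library other than cortex A224. What striatal or basal forebrain tissue contributed was not tested beyond this.

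**Figure D4:**
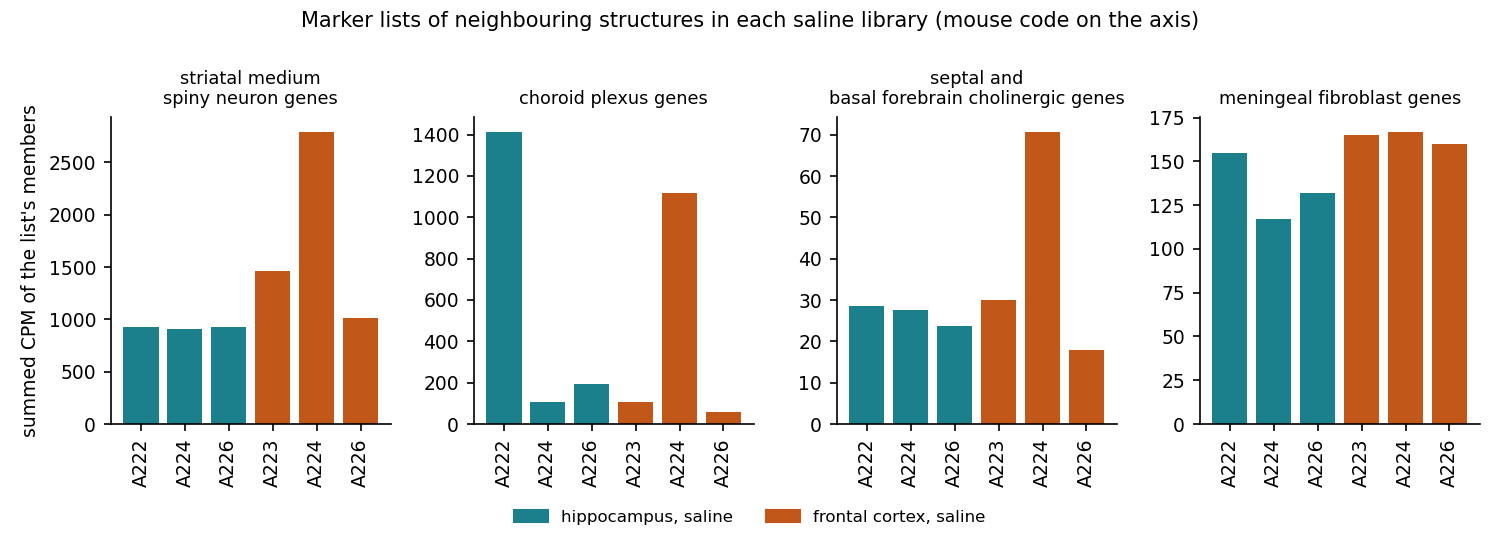
Summed CPM of striatal, choroid plexus, septal and meningeal marker genes in each saline library, hippocampus beside frontal cortex, 1 bar per library. Cortex A224 is highest for striatal genes at 2795 CPM, and hippocampus A222 and cortex A224 are highest for choroid plexus genes at 1415 and 1116 CPM.

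Meningeal fibroblast genes were lower in hippocampus for 10 of 12 and higher for 1 (median -0.86), and their sums were 155, 117 and 132 CPM in hippocampus, against 165, 167 and 160 CPM in frontal cortex. Col1a2, a chain of type I collagen, had 5.95, 4.07 and 6.20 CPM in hippocampus, against 17.5, 13.4 and 17.1 CPM in frontal cortex (log2 fold change -1.57, SE 0.19). Slc22a6, an organic anion transporter of leptomeninges, had 2.20, 1.39 and 2.77 CPM in hippocampus, against 6.76, 5.54 and 7.13 CPM in frontal cortex (-1.63, SE 0.24). Dcn, the proteoglycan decorin, was higher, at 41.3, 54.5 and 53.1 CPM in hippocampus, against 7.15, 6.55 and 6.98 CPM in frontal cortex (2.84, SE 0.20). Aldh1a2, which makes retinoic acid, passed at -1.11 (adjusted p = 0.0113) and fell short without hippocampus A222 (0.054), hippocampus A224 (0.0637) or cortex A226 (0.0625).

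Genes of ependymal cells were higher in hippocampus for 2 of 11 and lower for 0. The cilium gene Fam183b had 4.20, 3.79 and 4.21 CPM in hippocampus, against 0.944, 1.19 and 1.43 CPM in frontal cortex (log2 fold change 1.74, SE 0.20). Ccdc153, the other, lost its call without cortex A223, cortex A224 or hippocampus A222, and with the mouse as a block (adjusted p = 0.17). Thalamic genes were lower for 6 of 11 and higher for 3 (median -0.48). Rora, a nuclear receptor also made in layer 4, had 31.4, 31.8 and 29.3 CPM in hippocampus, against 85.1, 71.2 and 95.6 CPM in frontal cortex (-1.45, SE 0.13). Prkcd, protein kinase C delta, was higher at 0.92 (adjusted p = 0.00818), but not without cortex A226 (adjusted p = 0.0629), which left 1 thalamic gene called higher, nor with the mouse as a block (0.0507). Olfactory genes were higher for 3 of 8 and lower for 2 (median -0.14). Th, tyrosine hydroxylase, which makes dopamine and noradrenaline, had 0.245, 0.626 and 0.702 CPM in hippocampus, against 2.78, 4.70 and 2.40 CPM in frontal cortex (-2.62, SE 0.34). The second, Gng13, was lost without cortex A223 or hippocampus A226 and with the mouse as a block (adjusted p = 0.309), and the cadherin gene Cdhr1, called higher at 0.93, was lost without cortex A226 or hippocampus A224. Neither passed in a fit on the 6 saline libraries alone, at adjusted p of 0.0553 for Gng13 and 0.0643 for Cdhr1.

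Inhibitory interneuron genes were lower in hippocampus for 10 of 23 and higher for 4 (median -0.34). Pvalb, parvalbumin of fast-spiking cells, had 28.2, 26.9 and 27.8 CPM in hippocampus, against 79.7, 68.6 and 91.2 CPM in frontal cortex (log2 fold change -1.53, SE 0.10, adjusted p = 1.68e-14). Vip, the peptide of interneurons that inhibit others, had 19.7, 23.0 and 18.5 CPM in hippocampus, against 65.6, 54.3 and 52.1 CPM in frontal cortex (-1.49, SE 0.10, adjusted p = 9.29e-14). Sst, somatostatin, averaged 217 ± 13.1 CPM in hippocampus and 201 ± 21.2 CPM in frontal cortex (SD, n = 3 each), and its groups overlapped. Its log2 fold change was 0.12 (SE 0.09, adjusted p = 0.322). Nos1, neuronal nitric oxide synthase, was higher with 82.3, 80.6 and 81.8 CPM in hippocampus, against 28.2, 32.2 and 30.0 CPM in frontal cortex (1.44, SE 0.10). Calb2 (1.58), the serotonin receptor channel gene Htr3a (0.87) and Adarb2 (0.78) were the others called higher. Gad1, which makes GABA, was lower by little (-0.34, SE 0.07).

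Every one of the 16 tested myelin and mature oligodendrocyte genes was called lower in hippocampus (median -0.76). Mbp, myelin basic protein, had 1460, 1210 and 1370 CPM in hippocampus, against 2750, 2020 and 2530 CPM in frontal cortex (log2 fold change -0.85, SE 0.12, adjusted p = 1.65e-06). Mog, a protein of the outer myelin surface, had 26.8, 26.9 and 33.7 CPM in hippocampus, against 55.7, 48.7 and 56.8 CPM in frontal cortex (-0.89, SE 0.12). Aspa, which breaks down N-acetylaspartate, had the largest change (-1.06, SE 0.22) and Myrf, the master regulator of myelin genes, the smallest (-0.29, SE 0.11). Opalin, at -1.0 (adjusted p = 0.0235), lost its call without cortex A223, cortex A226, hippocampus A222 or hippocampus A224, where adjusted p ran from 0.0522 to 0.147, and in a fit on the 6 saline libraries alone (0.0968). Oligodendrocyte precursor genes divided, with 5 of 12 lower and 1 higher and a median near 0. Pdgfra, the receptor that defines precursors, had 51.1, 50.4 and 41.3 CPM in hippocampus, against 43.6, 43.6 and 39.8 CPM in frontal cortex (0.17, SE 0.10, adjusted p = 0.188). Enpp6, of newly formed oligodendrocytes, was lower (-1.15, SE 0.16), as was Bcas1 (-0.96, SE 0.14). Neu4, the member called higher, was lost without cortex A223, cortex A226, hippocampus A222 or hippocampus A224, and with the mouse as a block (adjusted p = 0.228), and without hippocampus A226 2 members were higher. Lhfpl3, called lower at -0.46, was lost without cortex A224, hippocampus A222 or hippocampus A224 and with the block (adjusted p = 0.163).

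Astrocyte genes were higher for 4 of 16 and lower for 4 (median -0.04). Gfap, the intermediate filament of fibrous astrocytes, had 214, 194 and 294 CPM in hippocampus, against 127, 110 and 131 CPM in frontal cortex (log2 fold change 0.93, SE 0.17, adjusted p = 6.24e-05). Agt, angiotensinogen, had 51.0, 53.4 and 37.7 CPM in hippocampus, against 13.6, 28.8 and 10.2 CPM in frontal cortex (1.48, SE 0.31), and stood at 2.19 without cortex A223 and A224. It did not pass in a fit on the 6 saline libraries alone (1.45, adjusted p = 0.0723). Aldh1l1, of folate metabolism, was lower (-0.54, SE 0.11). The glutamate transporter genes Slc1a2 (-0.06, adjusted p = 0.699) and Slc1a3 (0.10, adjusted p = 0.26) did not pass. Both counts were smaller without cortex A223 and A224, as were the counts over all tested genes.

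Microglia and vessels gave few calls after saline. Of 18 homeostatic microglia genes, 1 was lower and 0 were higher (median -0.11). Csf1r, the receptor that microglia need to survive, had 70.5, 63.7 and 76.7 CPM in hippocampus, against 73.5, 60.6 and 76.1 CPM in frontal cortex (log2 fold change 0.00, SE 0.13, adjusted p = 0.996). P2ry12, the purinergic receptor of resting microglia, had 8.60, 8.66 and 17.8 CPM in hippocampus, against 16.1, 7.74 and 15.3 CPM in frontal cortex (-0.19, SE 0.47, adjusted p = 0.796). The spread within each tissue was wider than the difference between them. Sall1, the member called lower (-0.32, adjusted p = 0.0113), was lost without cortex A226 (0.0611) and with the mouse as a block (0.113), and without hippocampus A226 2 members were lower. Of 16 endothelial and pericyte genes, 1 was lower and 0 higher (median -0.31): the VEGF receptor gene Flt1 at -0.31 (adjusted p = 0.0131), lost without cortex A226 (0.104) or hippocampus A226 (0.118). Without cortex A223 or hippocampus A222, 2 of these genes were lower, and without hippocampus A226 1 was higher. Cldn5, of tight junctions, had 33.4, 30.7 and 38.1 CPM in hippocampus, against 49.1, 38.6 and 41.5 CPM in frontal cortex (-0.34, SE 0.19, adjusted p = 0.171). After LPS, with 12 libraries per tissue, 9 of the 16 endothelial and pericyte genes were lower and 1 was higher (median -0.25). Of the 18 microglia genes, 5 were then lower and 1 was higher (median -0.11).

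Corticosterone acts through a pair of receptors, and their genes differed in opposite directions. Nr3c2, the mineralocorticoid receptor, which binds the hormone at low levels, had 153, 175 and 178 CPM in hippocampus, against 38.1, 33.6 and 37.0 CPM in frontal cortex (log2 fold change 2.21, SE 0.11, adjusted p = 5.01e-17). Nr3c1, the glucocorticoid receptor, had 64.1, 70.6 and 69.5 CPM in hippocampus, against 98.3, 81.6 and 110 CPM in frontal cortex (-0.51, SE 0.09, adjusted p = 5.37e-05). Neither receptor's groups overlapped. Hsd11b1, which regenerates active corticosterone, was higher (0.85, SE 0.15), with 16.8, 19.1 and 18.5 CPM in hippocampus, against 10.7, 6.79 and 12.1 CPM in frontal cortex. The hormone that starts the stress axis, Crh, was lower at 1.71, 1.39 and 0.975 CPM in hippocampus, against 5.51, 6.19 and 5.05 CPM in frontal cortex (-2.02, SE 0.17), and so was its receptor Crhr1 (-1.40, SE 0.13). The second receptor, Crhr2 (0.92, adjusted p = 0.0453), was lost without cortex A223, cortex A226, hippocampus A222 or hippocampus A226, with the mouse as a block (0.412) and in a fit on the 6 saline libraries alone (0.0602).

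Glucocorticoid-induced genes did not share a direction. Fkbp5, a chaperone that damps the receptor, had 163, 139 and 117 CPM in hippocampus, against 99.1, 116 and 81.2 CPM in frontal cortex (log2 fold change 0.50, SE 0.13, adjusted p = 0.00348). It did not pass in a fit on the 6 saline libraries alone (0.47, adjusted p = 0.0741). Dusp1, a phosphatase of MAP kinases, had 21.5, 19.8 and 15 CPM in hippocampus, against 41.5, 44.8 and 33.8 CPM in frontal cortex (-1.09, SE 0.18, adjusted p = 1.89e-05). Errfi1, an inhibitor of EGF receptor signalling, was 0.72 higher (SE 0.11). Sgk1, a kinase of ion transport, had 147, 129 and 87.5 CPM in hippocampus, against 84.3, 196 and 125 CPM in frontal cortex (-0.15, SE 0.20, adjusted p = 0.605), with overlapping groups. Tsc22d3, the leucine zipper GILZ, did not pass (-0.24, adjusted p = 0.0771) but did with the mouse as a block (-0.48, adjusted p = 0.000137), without cortex A223 (-0.37, adjusted p = 0.00975) and without hippocampus A222 (-0.37, adjusted p = 0.00816). The lipid droplet gene Plin4 likewise did not pass (-0.41, adjusted p = 0.312) but did with the block (-0.85, adjusted p = 0.000784) and without hippocampus A222 (-0.88, adjusted p = 0.0275). The whole list of 22 had 7 members higher and 5 lower (median -0.14). Mt1 and Mt2 are near-identical metallothionein genes whose counts are uncertain, and neither passed.

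DFP acts on acetylcholinesterase, whose gene Ache had 49.3, 47.2 and 51.3 CPM in hippocampus, against 42.7, 54.5 and 44.2 CPM in frontal cortex (log2 fold change 0.07, SE 0.11, adjusted p = 0.685), with overlapping groups. Bche, the related butyrylcholinesterase, was lower, with 2.45, 2.33 and 2.81 CPM in hippocampus, against 6.36, 4.05 and 4.86 CPM in frontal cortex (-1.01, SE 0.24). Receptors went both ways. Chrna7, the calcium-permeable nicotinic subunit, had 22.4, 24.9 and 20 CPM in hippocampus, against 7.40, 5.95 and 8.00 CPM in frontal cortex (1.64, SE 0.14). Chrm5, a muscarinic receptor, had 4.55, 4.42 and 3.20 CPM in hippocampus, against 0.0994, 0.417 and 0.218 CPM in frontal cortex (4.09, SE 0.37). Chrm2, the muscarinic autoreceptor, went the other way at 8.18, 8.84 and 7.68 CPM in hippocampus, against 20.7, 19.7 and 27.5 CPM in frontal cortex (-1.47, SE 0.11). In all, 6 of 20 cholinergic genes were higher and 7 lower (median -0.08), the lower ones including Chat, Slc18a3 and Slc5a7, which the septal list also holds.

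Glutamate receptor genes were higher in hippocampus for 14 of 24 and lower for 6 (median 0.32). Gria1, the AMPA receptor subunit GluA1, had 1180, 1260 and 1150 CPM in hippocampus, against 337, 373 and 337 CPM in frontal cortex (log2 fold change 1.78, SE 0.07, adjusted p = 2.97e-20). Gria2, the subunit that blocks calcium entry, was 0.62 higher (SE 0.06), and Gria4 lower (-0.54, SE 0.08). The NMDA subunit Grin2a was higher (0.85, SE 0.17) and Grin2b too (0.66, SE 0.20), while Grin1, the subunit they share, did not pass (0.15, adjusted p = 0.177). Of metabotropic receptors, Grm5 (0.93) was higher, and Grm8 (-1.24), Grm4 (-1.15) and Grm3 (-0.81) lower. Fewer members were called higher without cortex A223 and A224, as were fewer genes among all those tested.

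GABA receptor genes were higher for 4 of 15 and lower for 6 (median -0.08). Gabra5, the subunit of extrasynaptic receptors on pyramidal neurons, had 183, 218 and 203 CPM in hippocampus, against 53.1, 61.6 and 55.4 CPM in frontal cortex (log2 fold change 1.83, SE 0.07, adjusted p = 3.75e-19). Gabrd, the delta subunit of tonic inhibition, had 21.3, 20.2 and 26.3 CPM in hippocampus, against 82.0, 85.0 and 81.5 CPM in frontal cortex (-1.87, SE 0.10, adjusted p = 2.51e-16). Both sets of libraries were far apart. The alpha subunits Gabra2 (0.94) and Gabra3 (-0.96) also went opposite ways.

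Monoamine receptor genes were lower for 14 of 27 and higher for 6 (median -0.51). Drd5, a D1-like dopamine receptor, had 11.4, 13.5 and 10.4 CPM in hippocampus, against 1.99, 2.26 and 1.28 CPM in frontal cortex (log2 fold change 2.73, SE 0.19). Adra1b, an alpha-1 adrenergic receptor, had 5.21, 5.6 and 5.19 CPM in hippocampus, against 29.3, 28.0 and 33.2 CPM in frontal cortex (-2.50, SE 0.10), whereas Adra1d of the same family was higher (1.26, SE 0.11). The serotonin receptors Htr4 (3.11), Htr5b (2.93) and Htr1a (1.13) were higher and Htr2a lower (-1.02). Htr1d (-2.68) was lost without cortex A224 (-1.79, adjusted p = 0.0744). Drd3 had 1 count over the hippocampal libraries and 19 over the cortical ones, a ratio of 0.0431 (exact 95% interval 0.00104 to 0.271, counting error only). Its call was lost without cortex A224, hippocampus A224 or hippocampus A226, and with the mouse as a random effect (adjusted p = 0.0704). Fewer members were called lower without cortex A223 and A224, as were fewer genes among all those tested. Drd1 and Drd2, which the striatal list also holds, then stood at -1.21 and 0.50. The part of striatal RNA in these results was not tested.

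Of 23 neuropeptide and trophic factor genes, 11 were lower in hippocampus and 4 higher (median -0.34). Bdnf, brain-derived neurotrophic factor, had 50.4, 54.8 and 52.2 CPM in hippocampus, against 25.0, 20.9 and 21.8 CPM in frontal cortex (log2 fold change 1.22, SE 0.16, adjusted p = 5.07e-07). Grp, gastrin-releasing peptide (1.61), Nmb, neuromedin B (2.27), and Ntf3 (3.28) were the others called higher. Npy, neuropeptide Y, had 27.3, 30.1 and 29.3 CPM in hippocampus, against 72.1, 66.8 and 66.2 CPM in frontal cortex (-1.24, SE 0.09). Adcyap1, the peptide PACAP, was lower at 5.18, 4.24 and 4.33 CPM in hippocampus, against 20.7, 19.5 and 18.3 CPM in frontal cortex (-2.08, SE 0.22). Penk (-2.52), Tac1 (-2.85) and Pdyn (-2.17) are also striatal genes. Without cortex A223 and A224, Penk stood at -0.84 and Tac1 at -0.56. Fewer members were then called lower, as were fewer genes among all those tested. Nts, neurotensin, was not called (1.24, adjusted p = 0.199) but was without cortex A224 (2.34, adjusted p = 0.0417) and with the mouse as a random effect (2.64, adjusted p = 0.0123).

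Activity-induced genes divided. Fos had 10, 5.88 and 4.09 CPM in hippocampus, against 18.8, 22 and 13.5 CPM in frontal cortex (log2 fold change -1.42, SE 0.40, adjusted p = 0.00706). Egr1, also a transcription factor of stimulated neurons, was lower too (-1.35, SE 0.29, adjusted p = 0.000569), with no overlap between the tissues. Jun, a partner of Fos, was higher at 135, 135 and 133 CPM in hippocampus, against 40.8, 44.2 and 37.1 CPM in frontal cortex (1.73, SE 0.08), as was the nuclear receptor Nr4a3 (2.30, SE 0.20) and Fosl2 (1.03, SE 0.18). In this list of 17, 8 were lower and 3 higher (median -0.60). Fewer were called lower without cortex A223 and A224, as were fewer genes among all those tested, and Fos stood at -1.03. Npas4 (-1.66, adjusted p = 0.00979) was lost without hippocampus A224 (0.0538), and Arc, not called (-0.66, adjusted p = 0.19), was with the mouse as a block (-0.76, adjusted p = 0.0163).

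Voltage-gated potassium channel genes were lower for 13 of 29 and higher for 7 (median -0.24). Kcnh4, a channel of the ether-a-go-go family, had 1.99, 1.46 and 1.87 CPM in hippocampus, against 17.2, 16.4 and 17.2 CPM in frontal cortex (log2 fold change -3.25, SE 0.17, adjusted p = 2.06e-16). Kcng2, a silent modifier of Kv2 channels, had 42.8, 43.6 and 41.4 CPM in hippocampus, against 10.5, 11.2 and 8.56 CPM in frontal cortex (2.10, SE 0.09, adjusted p = 8.6e-19). Kcnd2, of the A-type current, was also higher (0.57). Kcna5 (-1.40, adjusted p = 0.00752) was lost without cortex A224 (-0.57, adjusted p = 0.207), with the mouse as a block (0.0569) and in a fit on the 6 saline libraries alone (0.175).

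Wnt pathway genes were lower for 9 of 30 and higher for 5 (median -0.21). Wnt10a, a ligand, had 4.58, 3.90 and 4.56 CPM in hippocampus, against 18.3, 16.3 and 19.9 CPM in frontal cortex (log2 fold change -2.07, SE 0.15), and Sfrp1, a secreted inhibitor, had 4.02, 2.75 and 3.35 CPM in hippocampus, against 14.4, 16.5 and 14.3 CPM in frontal cortex (-2.15, SE 0.15). The ligands Wnt7b (0.94), Wnt7a (0.82) and Wnt5a (0.65) and the enhancer Rspo2 (0.72) were higher. Of 26 cytokine, interferon and complement genes, 3 were higher and 4 lower (median -0.33). C4b, a complement component, had 30.8, 30.8 and 42.1 CPM in hippocampus, against 19.8, 20.9 and 21.2 CPM in frontal cortex (0.74, SE 0.12). The class I genes H2-D1 (-0.94, SE 0.10) and H2-K1 (-0.44, SE 0.13), which have close copies, and B2m, their light chain (-0.65, SE 0.08), were lower. Ifit3 (-0.87, adjusted p = 0.046), an interferon-induced gene with a near-identical copy, was lost without cortex A223, cortex A226, hippocampus A222 or hippocampus A224. It was also lost with the mouse as a block (0.279) or a random effect (0.0638), and with no filter on low counts (0.0782). C3 (1.33, adjusted p = 0.0292) was lost without cortex A223, cortex A226 or hippocampus A222, and with the block (0.361). The list had 1 gene higher without cortex A223 or hippocampus A222, and 2 lower without hippocampus A224. Tnf had 3 counts over the hippocampal libraries and 2 over the cortical ones, and Ccl2 3 and 3, too few to compare.

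The regional difference was then read in the 24 libraries of mice given LPS, 12 per tissue. Each of these mice gave both tissues, a pairing that the fit did not use. There, 11577 genes (65.6%) were called, 5831 higher in hippocampus and 5746 lower. Of the 6552 genes called after saline, 6205 were called in the same direction after LPS, which is 94.7% of the saline calls and 53.6% of the LPS calls, and 5 were called in the opposite direction, Rps6ka5, Ric8a, Atf3, Map9 and an entry without a symbol. Of the 1595 genes called with at least a 2-fold difference after saline, 1546 (96.9%) were called the same way after LPS. Among the marker and signalling genes, 313 of the 323 called after saline were called the same way. The 22 genes reported for the largest fold were all called in the same direction, and for each of them the 12 hippocampal LPS libraries did not overlap the 12 cortical ones.

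Lhx9 ran from 15.8 to 20 CPM in the hippocampal LPS libraries, against 0 to 0.586 CPM in the cortical ones (log2 fold change 6.18, SE 0.15), and its difference was 5.81, 6.90 and 5.84 at 6, 12 and 24 h. Dsp ran from 28.1 to 44.2 CPM in hippocampus, against 0.0924 to 0.529 CPM in frontal cortex (7.42, SE 0.14). Fibcd1 differed by 4.61, 4.49 and 4.36 at the 3 times, and Dkkl1 by -4.91, -4.90 and -5.22. Medians of the hippocampal lists after LPS were 0.67 for dentate, 1.09 for CA1, 1.08 for CA2 and 0.67 for CA3 genes, against 0.75, 1.11, 1.35 and 0.68 after saline. Those of layer 2 to 4 genes were -1.40 after LPS and -1.58 after saline, and those of myelin genes -0.71 and -0.76, again with 16 of 16 lower. Striatal genes were lower for 21 of 22 after LPS (median -2.07), in cortical libraries from other mice. Their sums were 1039 to 1972 CPM in those libraries, against 814 to 947 CPM in the hippocampal LPS libraries. After saline the sums were 1464, 2795 and 1010 CPM in frontal cortex. The part of striatal RNA in this repeat was not tested.

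**Figure D5:**
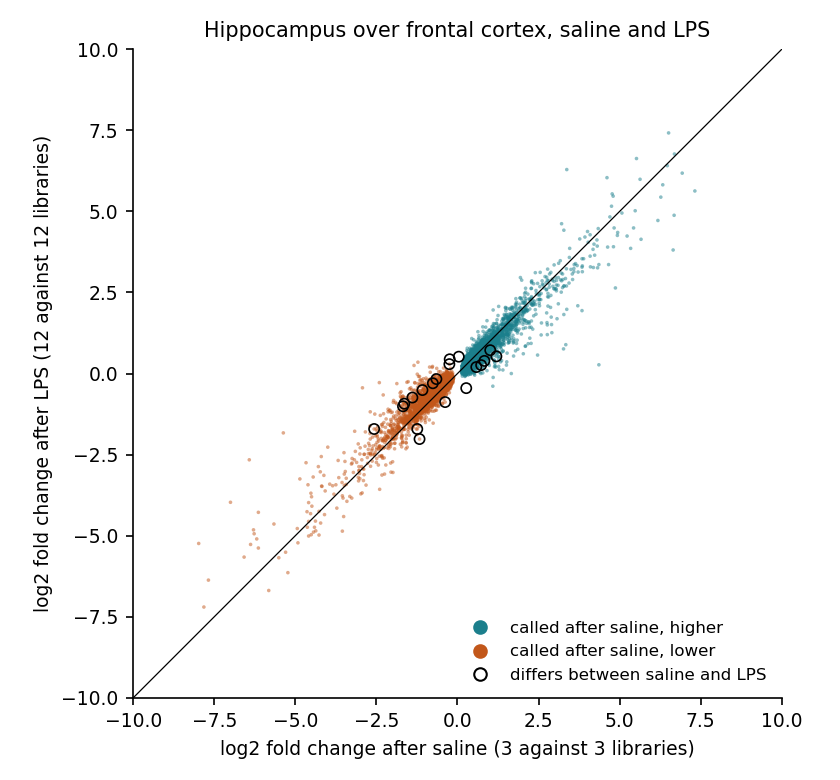
Log2 fold change of hippocampus over frontal cortex after saline (x axis, 3 libraries per tissue) and as the mean of the 3 LPS times (y axis, 12 libraries per tissue), 1 point per gene called after saline. Black circles mark the 19 genes whose difference was called as differing between saline and LPS libraries, whether or not they were called after saline. Genes called after saline lie near the diagonal, with 6205 of 6552 called in the same direction in both.

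The regional difference itself differed between saline and LPS for 19 genes (0.108%) in a test of that interaction (edgeR, Benjamini-Hochberg adjustment), 9 with a more positive and 10 with a more negative difference after saline, and 1405 genes had an unadjusted p under 0.05. H2-T23, a non-classical class I gene with close copies whose counts are uncertain, had 5.49, 4.66 and 6.08 CPM in hippocampus after saline, against 30.1, 33.3 and 32.9 CPM in frontal cortex. Its log2 fold change was -2.57 after saline, compared with -2.04, -1.65 and -1.44 at 6, 12 and 24 h of LPS (saline minus LPS -0.86, adjusted p = 0.0445). Ramp3, an accessory protein of calcitonin family receptors, had a fold change of -1.17 after saline, against -1.76, -2.08 and -2.20 at the LPS times (0.84, adjusted p = 0.0234). Rprm, a cell cycle gene that marks layer 6, had 53.1, 53.1 and 42.3 CPM in hippocampus after saline, against 43.1, 38.3 and 41.9 CPM in frontal cortex, and its fold change was 0.27 after saline, against -0.01, -0.68 and -0.65 at the LPS times (0.71, adjusted p = 0.0234). Saline libraries were taken at 6 h only, so LPS, later times and the different mice cannot be told apart in this test. The number of genes called in it rested on single libraries. It was 0 without hippocampus A222, hippocampus A224 or cortex A223, 1 without cortex A226, 2 without hippocampus A226 and 12 without cortex A224. Leaving out each of the 30 libraries in turn, H2-T23 was called in 17, Ramp3 in 25 and Rprm in 26 of the fits.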

How the data were processed

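Poly(A) RNA was sequenced on paired reads of 150 bases from stranded libraries, per the labels' protocols. The authors deposited raw read counts per gene, made with Trim Galore 0.4.1 and STAR 2.6.0a on GRCm38, per the submitters' processing notes; which read counter, strand setting and annotation were used is not given in the sources used here, so overlapping and near-identical genes remain uncertain. The table listed 48820 IDs, of which 48058 had a symbol. The authors left out 1 hippocampal baseline library for poor quality, which is not analysed here.

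Genes were filtered (at least 10 counts in enough libraries, 15 in all), scaled by TMM and fitted in edgeR 4.0.16 under R 4.3.3 over all 30 libraries in 8 groups, with robust quasi-likelihood tests and Benjamini-Hochberg adjustment at 0.05; the script was tested on simulated data. Contrasts were hippocampus over frontal cortex after saline, the same averaged over the LPS times, and their difference. A standard error is the size of the log2 fold change divided by the square root of its F statistic. Intervals and limits from counts cover counting error only. Members of the lists, and the lists themselves, were chosen with earlier results of these data known.

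Genes were named by rule: among those called, with non-overlapping groups and a mean log2 CPM of at least 1, the 12 of largest positive and the 12 of largest negative fold change; the 6 largest CPM differences each way, up to 5 called and 3 uncalled genes per list, 15 fixed genes and 3 genes of the interaction. Some genes are not reported here; list counts and sums include them. Not all named genes are printed, and other list members are named where a count called for it.

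Replicates within a group are separate mice. By the mouse codes in the labels, A224 and A226 gave both saline tissues, and every LPS mouse gave both tissues. Over 14 mice with both tissues, deviations from group means correlated at a median of 0.109 (-0.0617 to 0.308) and above 0.1 in 7 of them. For the saline comparison, the mouse was added as a replicate block, as a fixed effect or as a random effect (consensus correlation 0.11), as an alternative. With the fixed effect, only A224 and A226, the saline mice with both tissues, inform the saline difference. The LPS comparison and the interaction were not fitted with the mouse as a block. Others were DESeq2 1.42.0, limma 3.58.1 voom, other scalings and filters, the 6 saline libraries alone, and leaving out libraries.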

Additional observations from a re-analysis of the deposited data

Results flagged for a closer look

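The regional difference of 3 named genes differed between saline and LPS libraries in a test of the interaction. Saline libraries were taken at 6 h only, so LPS, time and the different mice cannot be told apart. The log2 fold change of hippocampus over frontal cortex after saline minus that after LPS was -0.86 for H2-T23, 0.84 for Ramp3 and 0.71 for Rprm. Each call was lost in some fits that left out 1 library, as given with their values.

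Among groups of 4 LPS libraries, 5 sums of marker genes held 1 library far from the other 3. Striatal genes summed to 1039 CPM in frontal cortex of mouse A241 at 6 h, against 1676 to 1750 CPM in the others. Choroid plexus genes summed to 436 CPM in hippocampus of A240 at 6 h, against 68 to 81 CPM, and to 2536 CPM in hippocampus of A261 at 12 h, against 65 to 310 CPM. They summed to 486 CPM in frontal cortex of A241 at 6 h, against 47 to 79 CPM, and to 364 CPM in frontal cortex of A258 at 12 h, against 23 to 35 CPM. Chance alone marks about 1 in 20 groups in this way if the sums are normally distributed. Choroid plexus sums were uneven, at 23 to 506 CPM in the cortical LPS libraries with a median of 53 CPM. Whether 5 such sums are more than chance gives was not tested. Groups of 3 saline libraries were not examined by this criterion.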

How the results depend on the processing

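Against 3513 genes higher and 3039 lower after saline, counts were 3196 and 3302 with DESeq2, 3188 and 3279 with its size factors, 4705 and 4175 with voom, 2696 and 3176 without a filter, and 3085 and 3242 from the 6 saline libraries alone. Leaving out 1 library gave 2696 to 3304 higher and 2547 to 2872 lower, 706 to 771 at least 2-fold higher and 778 to 888 at least 2-fold lower. With the mouse as a replicate block, 2774 were higher and 2565 lower as a fixed effect, and 3757 and 3213 as a random effect; 19 named genes lost their call with the fixed effect and 7 with the random effect, and the blocked values stand beside the results they change. The alternatives that leave out 2 libraries were added after the data had been seen. Without cortex A223 and A224, 2101 genes were higher, and Drd2 (0.50) and Six3 (0.60) changed sign. After LPS, 4149 genes were lower at 6 h alone, 4078 at 12 h alone and 3645 at 24 h alone. Each of these comparisons had 4 libraries per tissue. Over all times, with 12 libraries per tissue, 5746 genes were lower. The interaction count ran between 0 and 25 when 1 library was left out. Of 4132 values of 244 named genes under 17 settings, 3804 kept their direction and side of the threshold, 172 lost and 154 gained the call, and 2 changed sign. The cause of these changes was not tested. Cortex A224 was the shallowest library, and the smallest difference that this depth can show was not measured.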
